A study of Cicer arietinum with 4 samples.

Results

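In ovules of chickpea (*Cicer arietinum*), 55 genes had at least 6 times less transcript after fertilization than before it. They were chosen from the 28783 genes of the deposited table by 4 conditions. The identifier begins with LOC, the gene spans at least 300 bp, the smaller of the pre-fertilization values is at least 5 FPKM, and the larger of the post-fertilization values is at most one 6th of it. FPKM is a count of sequenced fragments corrected for transcript length and for the size of the library. The first 3 conditions left 12258 genes that could have met the last, and 0.449% of them did. Because these values chose the genes, their fall is given as a description and carries no test.

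The libraries were 2 of post-fertilization ovules, taken from half-opened flowers, and 2 of pre-fertilization ovules, taken from closed buds, all of the cultivar ICC4958. Fertilization and the stage of the flower differ together between the groups and cannot be told apart. The labels do not say whether the libraries of a group came from separate plants, so the spread between them may be technical. They are called post A, post B, pre A and pre B, with letters that carry no order. The labelled tissue was not checked against marker genes of the ovule, since few genes of the table carry a symbol.

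The ovule holds the egg cell and the central cell inside sterile layers, the nucellus and the integuments. After double fertilization the egg cell gives the embryo, the central cell gives the endosperm and the integuments become the seed coat. In RNA from whole ovules, fewer cells of a type and less RNA per cell cannot be told apart.

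The choice of LOC identifiers fixes that none of the 55 genes carries a symbol in the deposited table. None of the 55 genes carries a symbol or a synonym in the RefSeq gene table (0 of 55), and neither table gives product names. They are therefore described by identifier, level, structure and position, and no role is given to them. Of the 55, 53 were found in RefSeq, and all 53 are protein-coding there. LOC101514152 and LOC101500259, the shortest of the 55 at 354 and 441 bp, were not matched.

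Sequencing depth is known only in relative terms. On genes spanning 1000 to 1500 bp, the 1st percentile of the values above 0, which lies near the worth of 1 fragment, was 0.0509 FPKM in post A, 0.0455 in post B, 0.0496 in pre A and 0.0896 in pre B. Depth relative to pre A was by this estimate 0.974 in post A, 1.09 in post B and 0.554 in pre B. All 55 genes had a value above 0 in every library. The lowest was 0.0588 FPKM, for LOC101493897 in post B, and how many fragments lie behind it is not known.

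Together the 55 genes summed to 126 FPKM in post A and 84.7 in post B, against 1515 in pre A and 1516 in pre B. The median of the 55 was 1.57 FPKM in post A and 1.22 in post B, against 17.8 in pre A and 17.4 in pre B. Before fertilization they were ordinary in level: their median of the mean FPKM was 17.4, beside 18.9 for all 12258 genes that could have met the conditions. Among the 26792 LOC genes of at least 300 bp, ranked from the highest mean FPKM down, their median rank was 16646 after fertilization and 6571 before it. In both post-fertilization libraries 15 of the 55 were under 1 FPKM, and 6 stayed above 5 FPKM in at least one of them.

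**Figure D1:**
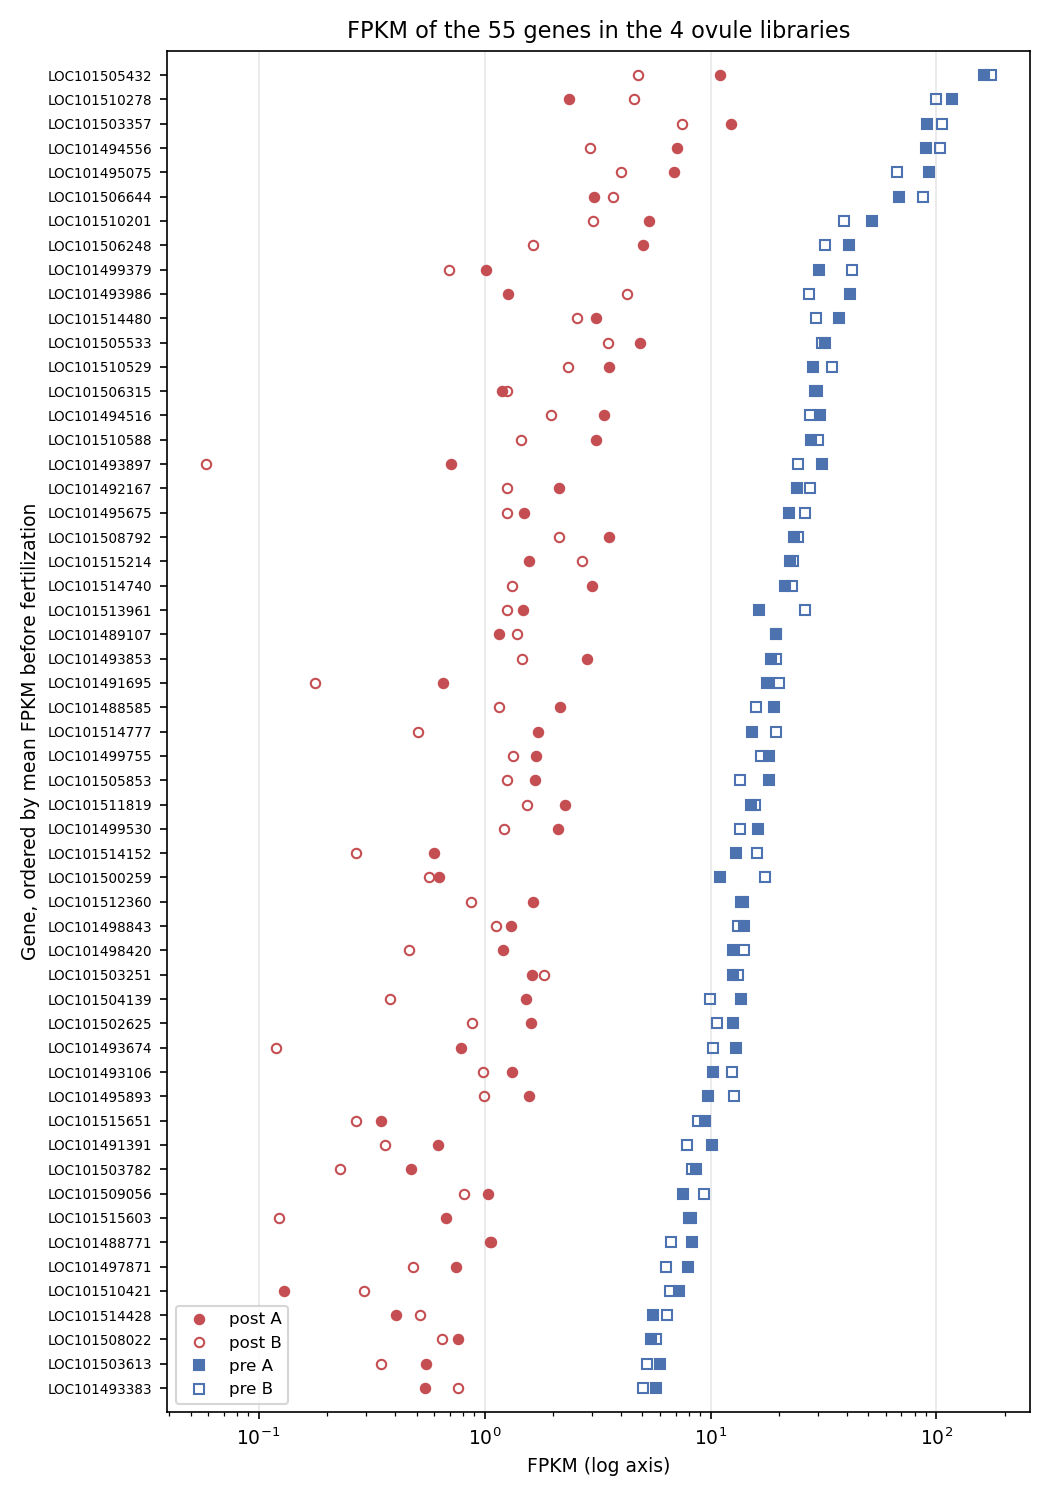
FPKM on a log axis for each of the 55 genes, which are ordered by mean FPKM before fertilization; circles are post A (filled) and post B (open), squares are pre A (filled) and pre B (open). The circles lie left of the squares in every row, which the choice of genes fixes, and the open circle lies left of the filled one in 44 of 55 rows.

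The 55 genes came from a range of starting levels, with a smaller pre-fertilization value of 5.03 to 162 FPKM. The shares that follow are a description, since the smaller pre-fertilization value also has a part in the choice. Of genes with a smaller pre-fertilization value of 5 to 10 FPKM, 14 of 2972 were among the 55 (0.471%). The share was 0.509% from 10 to 20 FPKM (19 of 3732), 0.444% from 20 to 50 FPKM (16 of 3603) and 0.446% from 50 to 100 FPKM (5 of 1122). Above 100 FPKM it was 1 of 829 (0.121%), and that gene was LOC101505432.

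LOC101505432, on chromosome 4 from 12661257 to 12665512, was the most abundant of the 55 before fertilization. It had 11.0 FPKM in post A and 4.79 in post B, against 162 in pre A and 173 in pre B. Its mean was 7.90 ± 4.39 FPKM after and 168 ± 8.25 before fertilization (SD, n = 2 each), 21.2-fold lower. By mean FPKM it ranked 11215 after fertilization and 481 before, of the 26792 genes.

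LOC101510278, on chromosome 5 from 36565820 to 36568200, came next in abundance and also had one of the 10 largest drops. Its values were 2.37 and 4.59 FPKM after fertilization, against 117 and 99.7 before. The means were 3.48 ± 1.57 and 108 ± 12.4 FPKM (SD, n = 2 each), a 31.1-fold lower level after fertilization. It is one of the few genes whose value in post B was above that in post A.

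LOC101503357 on chromosome 3, from 3616695 to 3618257, had the highest level left after fertilization, at 12.3 FPKM in post A and 7.51 in post B, against 90.3 in pre A and 106 in pre B. LOC101494556, on a scaffold not placed on a chromosome, started from a like level and ended lower, at 7.08 and 2.94 FPKM after fertilization against 90.2 and 104 before. These 2 genes show how far genes of like starting level differed: the means fell 9.90-fold for LOC101503357 and 19.3-fold for LOC101494556. LOC101495075, on chromosome 2 from 35793739 to 35797921, had 6.89 and 4.02 FPKM after fertilization, against 93.0 and 67.1 before. LOC101506644, on chromosome 5 from 39902401 to 39904879, had 3.04 and 3.71 FPKM after, against 68.0 and 87.0 before. It fell 23.0-fold in mean and its post-fertilization libraries lay close together (3.38 ± 0.474 FPKM, SD, n = 2).

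The remaining genes among the 10 most abundant started near 30 to 50 FPKM. LOC101510201, on chromosome 7, had 5.34 FPKM in post A and 3.01 in post B, against 51.7 in pre A and 39.0 in pre B. LOC101506248, also on chromosome 7, had 5.0 and 1.63 FPKM after fertilization, against 40.9 and 32.1 before. LOC101493986, on chromosome 6, is another gene with post B as the higher library. It had 1.27 FPKM in post A and 4.25 in post B, against 41.5 in pre A and 27.2 in pre B. These 10 genes held 44.0% of the sum of the 55 in post A and 43.9% in post B, against 51.8% in pre A and 51.3% in pre B.

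The depth of the drop is given below as the smaller pre-fertilization value over the larger post-fertilization value, which is the most cautious fold that the 4 libraries allow. It ranged from 6.18 to 34.1 with a median of 8.94. It was at least 10 in 23 genes and at least 20 in 8, and under 7 in 13. In terms of mean FPKM the drop ranged from 7.04-fold to 71.8-fold with a median of 12.4-fold.

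**Figure D2:**
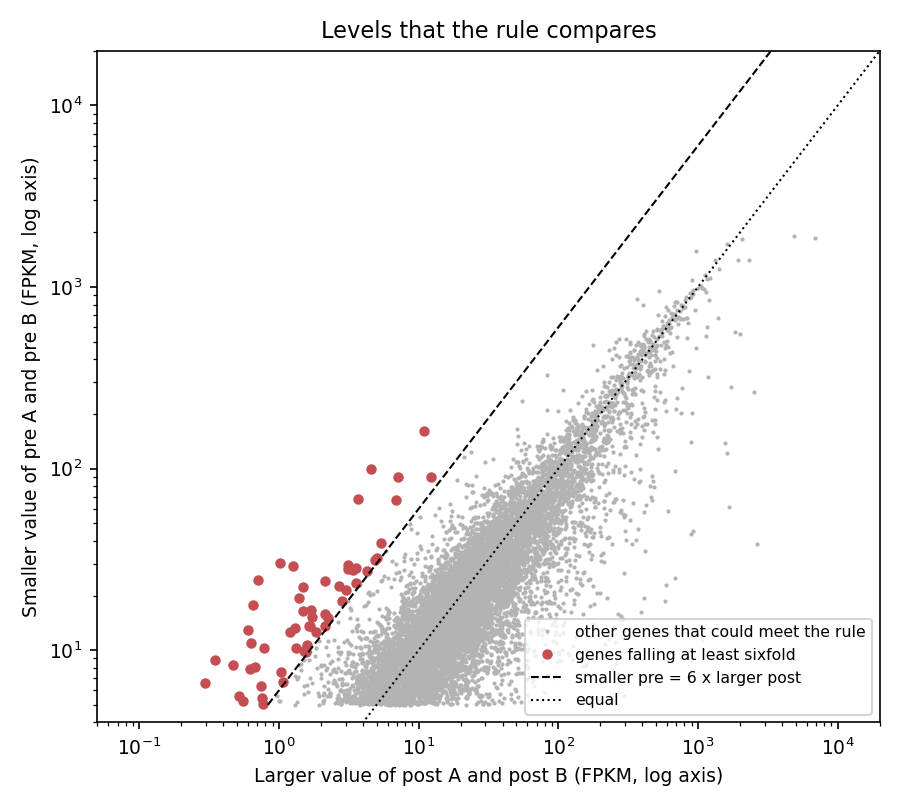
The smaller of the pre-fertilization values (vertical) against the larger of the post-fertilization values (horizontal), in FPKM on log axes, for the 12258 genes that could have met the conditions; red points are the 55 genes, the dashed line is the 6-fold limit and the dotted line marks equal values. The 55 points lie at and above the dashed line, at starting levels from 5.03 to 162 FPKM, with LOC101505432 the highest of them.

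LOC101493897, on chromosome 2 from 2052051 to 2056718, had the deepest drop. It had 0.713 FPKM in post A and 0.0588 in post B, against 31.1 in pre A and 24.3 in pre B, so even post A was 34.1-fold under the smaller pre-fertilization value. The means were 0.386 ± 0.462 and 27.7 ± 4.78 FPKM (SD, n = 2 each). LOC101499379, on chromosome 5 from 12497167 to 12498733, followed with a cautious fold of 29.7 and is also among the 10 most abundant. Its values were 1.02 and 0.693 FPKM after fertilization, against 30.3 and 42.3 before.

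LOC101491695, on chromosome 1 from 4064777 to 4066797, had 0.654 FPKM in post A and 0.178 in post B, against 17.8 in pre A and 20.1 in pre B. LOC101506315, on chromosome 4 from 46570792 to 46574261, differed little between the libraries of a group, with 1.20 and 1.26 FPKM after fertilization against 29.5 and 28.9 before. The groups of LOC101506315 were therefore 23.8-fold apart in mean with an SD of 0.0424 FPKM after and 0.397 FPKM before fertilization (n = 2 each). LOC101514152, the 354 bp gene on chromosome 5 from 36980148 to 36980501, had 0.596 and 0.270 FPKM after, against 12.9 and 16.0 before.

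A further 3 of the 10 deepest drops started under 10 FPKM. LOC101515651, on an unplaced scaffold, had 0.347 and 0.270 FPKM after fertilization, against 9.41 and 8.83 before. LOC101510421, on chromosome 7 from 15372566 to 15373661, had 0.129 and 0.294 FPKM after fertilization, against 7.23 and 6.63 before. LOC101503782, on chromosome 7 from 11377982 to 11380275, had 0.472 and 0.229 FPKM after, against 8.65 and 8.26 before. Deep drops were thus found both in abundant and in weakly expressed genes.

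The limits of the selection cut through a continuous range of values. Just inside the fold limit, LOC101495893 had 1.57 and 0.993 FPKM after fertilization against 9.71 and 12.6 before, and LOC101488771 had 1.06 and 1.07 against 8.25 and 6.68. Just outside it, LOC101488383 had 3.81 and 3.30 FPKM against 22.9 and 25.9 (a fold of 5.99), and LOC101515715 had 5.86 and 4.06 against 35.0 and 35.7 (5.97). Nearest above the 5 FPKM minimum stood LOC101493383, at 0.547 and 0.765 FPKM against 5.74 and 5.03, and LOC101503613, at 0.552 and 0.347 FPKM against 5.95 and 5.22. Nearest below the minimum stood LOC101505175, at 0.249 and 0.194 FPKM against 4.92 and 4.84. LOC101492300 fell below it through pre A alone, with 0.620 and 0.450 FPKM after fertilization against 4.81 in pre A and 27.1 in pre B.

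How many genes met the conditions depended on single libraries. With a library left out the conditions are easier to meet, so the 55 genes meet them too. Without pre A 121 genes met them and without post A 116, against 78 without pre B and 72 without post B. A limit of 8-fold instead of 6-fold left 34 genes, and 1 FPKM added to both sides of the fold left 28. The median log2 difference of the 55 (post minus pre, with 1 FPKM added before the log) was -2.95, against 0.02 over all 17849 tested genes. It was -3.50 with a pseudocount of 0.1 and -1.78 with a pseudocount of 5.

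With the authors' scaling, drops of this size were rarer than rises of the same size. Under the mirrored conditions, with a smaller post-fertilization value of at least 5 FPKM and a larger pre-fertilization value of at most one 6th of it, 424 of 12463 genes were higher after fertilization, which is 3.4%. At 2-fold the shares were 4.19% for lower and 10.5% for higher genes, and at 20-fold 0.0653% and 1.63%. With quantile normalization 74 genes met the conditions for a drop. Rises were not counted with that scaling, so whether the difference holds there was not tested.

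The post-fertilization libraries did not show the 55 genes at the same level. Post A was above post B in 44 of the 55 genes (80.0%), against 55.4% of the 12258 genes that could have met the conditions. The median ratio of post A to post B was 1.58 over the 55 genes and 1.03 over the 12258. Before fertilization, pre A was above pre B in 28 of the 55 genes (50.9%), against 55.9% of the 12258. The median ratio of pre A to pre B was 1.01 over the 55 genes and 1.02 over the 12258. Thus post B was the lower library for most of the 55 genes, while pre A and pre B showed no such lean in them. Values of both groups had a part in the choice of the 55, so these shares are a description.

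Genes with smaller drops leaned the same way. Post A was above post B in 86.7% of the 135 genes outside the 55 with a cautious fold of 3 to 6, in 76.2% of the 324 genes with a fold of 2 to 3 and in 68.5% of the 4565 genes with a fold of 1 to 2. The share in the 55, 80.0%, lies under that of the first of these 3 sets, while their median ratio of 1.58 lies above those of all 3, which were 1.43, 1.16 and 1.08. These sets were formed from the post-fertilization values themselves, so the shares are a description. With quantile normalization, chosen as a check after the data were seen, post A was above post B in 47 of the 55 genes and in 65.5% of the 12258. All of these shares describe the same pair of libraries, and whether another pair would show them was not tested.

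**Figure D3:**
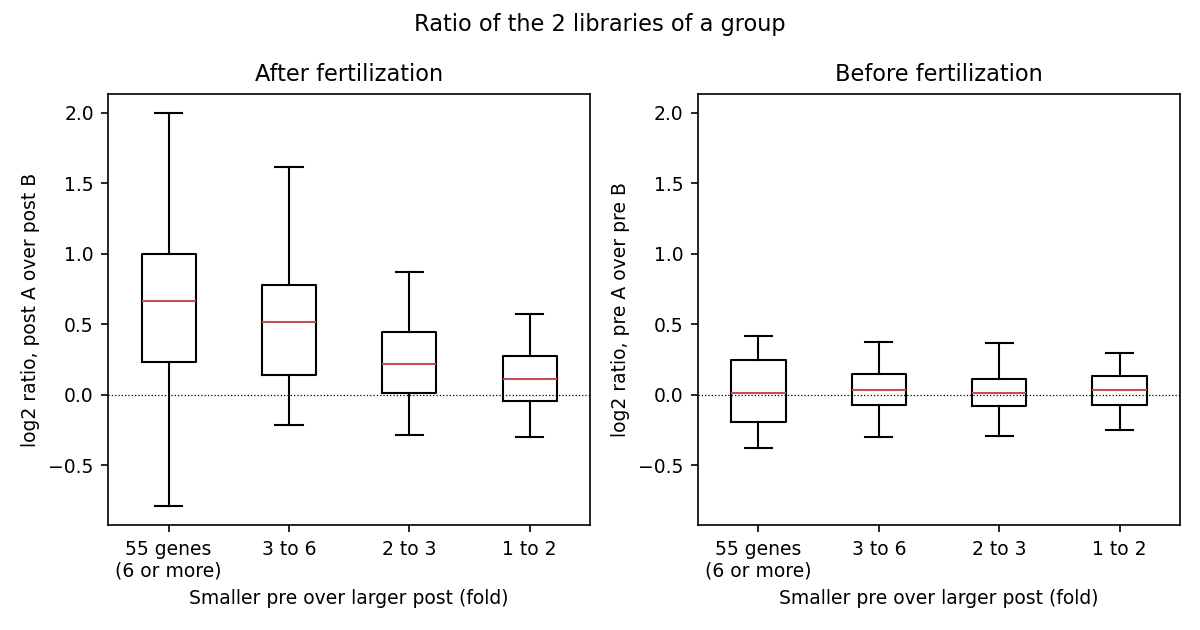
The log2 ratio of the libraries of a group (post A over post B, left; pre A over pre B, right) for the 55 genes and for other genes by their fold, the smaller pre-fertilization over the larger post-fertilization value. Boxes span the quartiles with the median in red and whiskers reach the 5th and 95th percentiles; on the left the median is 0.66 for the 55 genes and lower in each set of smaller folds, while on the right all medians lie near 0.

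Single genes differed widely in this ratio. In 14 of the 55 post A was at least 2 times post B, and in 2 post B was at least 2 times post A, while none of the 55 differed by 2 times between pre A and pre B. LOC101493897 had the highest ratio, 12.1. LOC101493674, a 616 bp gene on chromosome 7, had 0.786 FPKM in post A and 0.119 in post B, against 12.9 in pre A and 10.3 in pre B. LOC101515603, also on chromosome 7, had 0.673 FPKM in post A against 0.123 in post B, and 8.18 and 8.04 before fertilization. At the other end stood LOC101493986, with a ratio of 0.30, and LOC101510421, with 0.440. Values this low in the post-fertilization libraries are coarse at this depth, and how much of the spread is counting error was not tested.

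Gene structure was not used to choose the genes, apart from the minimum span. The 55 genes were short, with a median span from start to end of 2479 bp against 4327 bp for the 12258 genes that could have met the conditions. The quartiles of their span were 1713 and 4056 bp, against 2885 and 6383 bp. Under 5000 bp lay 50 of the 55 (90.9%), against 60.2% of the 12258. The longest, LOC101510529 on chromosome 1, spans 20440 bp and had 3.57 and 2.33 FPKM after fertilization against 28.5 and 34.4 before. Of the 53 found in RefSeq, 42 (79.2%) have a single transcript there, against 66.1% of the 12133 matched genes among the 12258. All 53 are protein-coding, against 98.3% of the 12133.

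**Figure D4:**
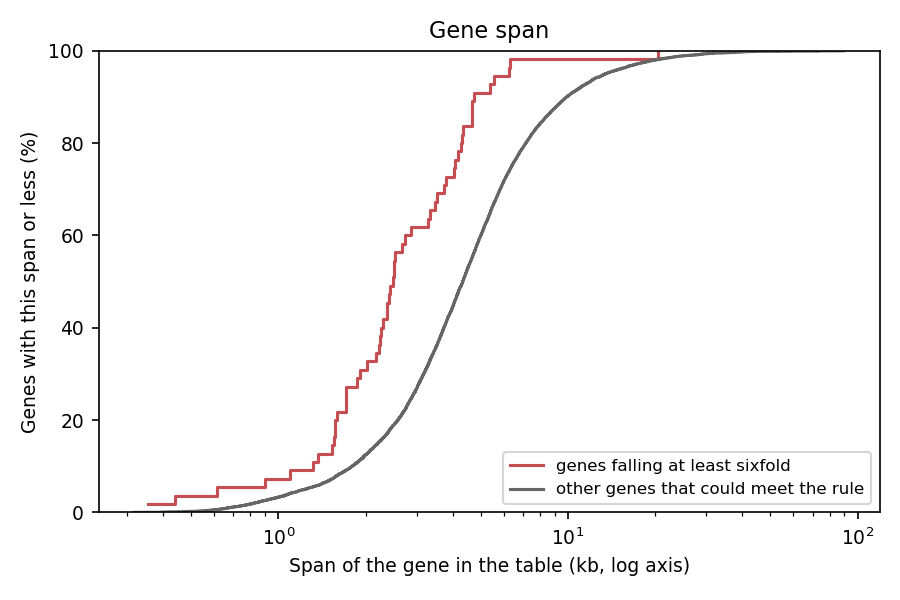
Cumulative share of genes (%) by their span in kb on a log axis, for the 55 genes (red) and the other genes that could have met the conditions (grey). The red line lies left of the grey one over most of the range, with medians of 2479 bp over the 55 genes and 4327 bp over all 12258 genes.

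The 55 genes were spread over all 8 chromosomes. Chromosome 7 held 11 (0.736% of its 1494 genes that could have met the conditions) and chromosome 5 held 10 (0.646% of 1548). The 2 chromosomes together held 38.2% of the 55 genes and 24.8% of the 12258. Chromosome 6, with the most such genes (1838), held 4 (0.218%), and chromosome 8 held 2. Unplaced scaffolds held 7 (0.609% of 1150). Within 100 kb of another of the 55 genes lay 0 of them, and the closest pair, LOC101510278 and LOC101514152 on chromosome 5, was 411947 bp apart. LOC101493853, from 36137979 to 36142036 and with 2.83 and 1.46 FPKM after fertilization against 18.6 and 19.6 before, lay 423783 bp on the other side of LOC101510278. Within 1 Mb of another of the 55 genes lay 18 of them. The 7 on unplaced scaffolds had no other of the 55 on their scaffold, so both counts rest on the 48 placed genes. The same counts were not made for the 12258 genes, so whether the 55 lie closer or farther apart than others was not tested.

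Genes next to the 55 were tested, since their values had no part in the choice. Of all 17849 genes tested with limma, 15.5% were called lower and 21% higher after fertilization at an adjusted p under 0.05 (Benjamini-Hochberg). All 55 genes were among those called lower, from which nothing is read, since the same values chose them. With no filter on low values 50 of them were called, and from this nothing is read either. The nearest gene on each side gave 107 flanking genes, of which 75 were tested. Of these, 14 were lower (18.7%), 12 were higher (16.0%) and 49 did not pass, close to the shares over all genes. Their median log2 difference was -0.01.

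That count depended on scaling and on the pre-fertilization libraries. With quantile normalization 2996 of all genes were higher and 3934 lower, against 3754 and 2768 with the authors' scaling, and 21 flanking genes were lower (28%, against 22% of all genes). Quantile normalization moved the median log2 difference of all genes to -0.14. Without pre A or without pre B 1 flanking gene was lower in each case, when 99 and 74 of all genes were. Both neighbours were called lower for 0 of the 55 genes. Only 75 of the 107 flanking genes were tested, so many of the 55 could not show this. The share over all genes was not counted, and nothing is read from the 0.

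**Figure D5:**
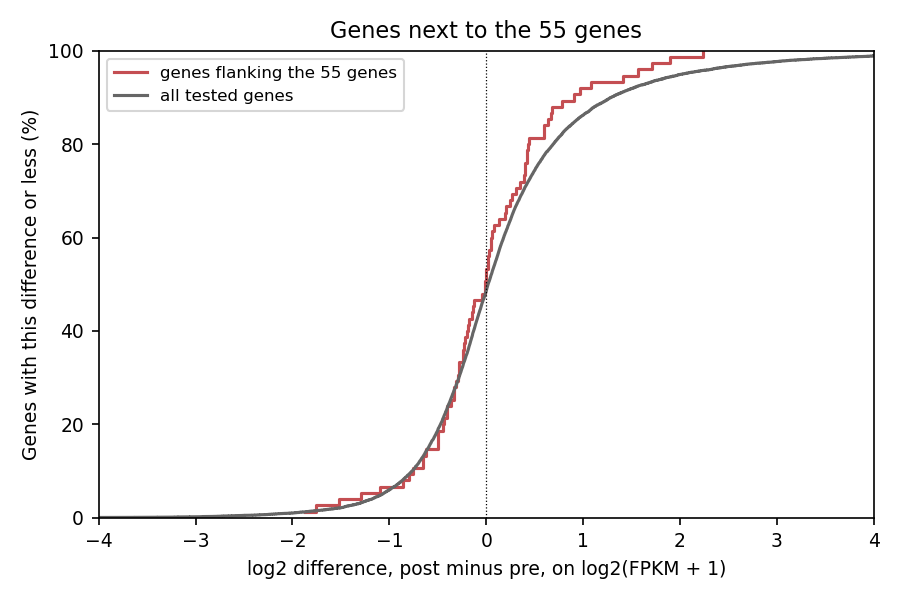
Cumulative share of genes (%) by log2 difference (post minus pre, with 1 FPKM added before the log), for the 75 tested flanking genes (red) and all 17849 tested genes (grey). The lines cross near 0, where the medians are -0.01 and 0.02.

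Some of the 55 genes sit beside genes that rose. LOC101506325 lies 311 bp from LOC101506644 and had 2.89 and 5.02 FPKM after fertilization, against 0.682 in pre A and a listed 0 in pre B (log2 difference 1.90, SE 0.37, limma adjusted p = 0.0209). The call was lost under 4 of the 8 alternatives in which it could be tested, among them without pre A (adjusted p = 0.0691) and without pre B (adjusted p = 0.110), in a range of 0.0209 to 0.110. LOC101495402 lies 1586 bp from LOC101495075 and rose to 29.6 and 51.7 FPKM after fertilization, against 12.3 and 10.3 before (log2 difference 1.71, SE 0.29, limma adjusted p = 0.0155; 0.0904 without pre A and 0.107 without pre B, in a range of 0.001 to 0.107). LOC101506002, 10472 bp from LOC101506315, rose to 8.21 and 5.69 FPKM, against 1.19 and 0.255 before (log2 difference 2.24, SE 0.34, limma adjusted p = 0.0126; 0.0704 without pre B, in a range of 0.00826 to 0.0853). In each of these pairs the post-fertilization values of one gene lie above its pre-fertilization values and those of its neighbour below.

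Other flanking genes were lower, like the genes beside them. LOC101499398, 9857 bp from LOC101498420, had 50.4 and 36.4 FPKM after fertilization against 136 and 158 before (log2 difference -1.75, SE 0.19, limma adjusted p = 0.00637; 0.0555 without pre A and 0.0666 without pre B, in a range of 0.000865 to 0.0666). LOC101510606, 23973 bp from LOC101510278, had 16.5 and 14.8 FPKM against 46.1 and 47.0 (log2 difference -1.51, SE 0.11, limma adjusted p = 0.00300), a call that held under all 11 alternatives. LOC101495347, 5894 bp from LOC101495675, had 0.0622 and 0.311 FPKM against 4.05 and 2.69 (log2 difference -1.87, SE 0.25, limma adjusted p = 0.00931). It was lost with no filter on low values (adjusted p = 0.0564, in a range of 0.00680 to 0.0564), and without pre A or pre B it did not meet the filter and was not tested. LOC101488253, which overlaps LOC101488585, is the only flanking gene whose span overlaps a gene of the 55, and reads of such a pair may be shared.

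Genes with a symbol were outside the choice, and 2 of the 299 of them, tRNA genes left out, met its other conditions. That count is over genes of any level, so it cannot be set against the 0.449% of LOC genes that could have met the conditions. HSFB4, which encodes a heat stress transcription factor of class B, had 5.75 FPKM in post A and 1.77 in post B, against 42.2 and 46.6 before fertilization. It lies on chromosome 5 from 36710805 to 36712488, between LOC101510278 and LOC101514152. In *Arabidopsis* the gene of this name is known for its part in setting cell identity in the root. NAC09, of the NAC family of plant transcription factors, had 0.131 FPKM in post A and a listed 0 in post B, against 5.27 and 8.23 in pre A and pre B. Both had their lower post-fertilization value in post B, as 44 of the 55 genes did. They were chosen after their values were seen, and those of NAC09 differ only at very low levels. Neither gene therefore adds to that count.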

How the data were processed

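Total RNA of 2 post- and 2 pre-fertilization ovule libraries was sequenced as paired ends, per the labels' protocols. The authors deposited 1 table of FPKM values per gene and library. Tools listed in the submitters' processing notes are HISAT2, Cufflinks, Cuffdiff, fastp and FastQC, with no role or version. The genome build, annotation and scaling between libraries, and how reads shared by similar gene copies were counted, are steps not given in the sources used here. Column names give the group of a library but not its sample.

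The 55 genes and all lists and tests were chosen with earlier results of these data known. A gene was tested if 2 or more libraries had at least 1 FPKM, on log2(FPKM + 1), by limma 3.58.1 (R 4.3.3; group as the one factor, variance trend, two-sided, Benjamini-Hochberg), checked on simulated data. Tested were 17849 genes, and calls of the fit are read only for genes outside the 55. Coordinates come from the deposited table and an unstated build; chromosome numbers, gene classes and transcript counts are from RefSeq (assembly Cicar.CDCFrontier_v2.0), matched by gene number for 25491 genes. Named were the 10 most abundant genes before fertilization, the 10 deepest drops, the 2 genes nearest each limit on either side, and the 3 flanking genes with the largest called change in each direction. Others (LOC101493674, LOC101515603, LOC101510529, LOC101493853, LOC101500259, LOC101488253, HSFB4 and NAC09) were chosen after their values were seen. Figures were drawn with matplotlib 3.10.9. Protein similarity, protein features and promoter motifs were not analysed here.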

Additional observations from a re-analysis of the deposited data

How the results depend on the processing

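The 55 genes also met the conditions under wider settings, which looser conditions fix in advance. There 114 genes met them at 4-fold, 105 with a minimum of 2 FPKM, 58 with no minimum span and 57 with all identifiers. All 55 were also kept with other scaling, among 74 genes with quantile normalization and 56 with median-of-ratios scaling. Stricter settings kept 34 at 8-fold, 41 with a minimum of 10 FPKM and 28 with 1 FPKM added to both sides. Leaving out a library gave 72 to 121 genes; with fewer values the conditions are easier to meet. The median log2 difference of the 55 was -3.50 with a pseudocount of 0.1, -1.78 with a pseudocount of 5, and between -3.10 and -2.75 with a library left out. The number of genes called lower, 2768, was 944 with no filter on low values, where 28783 genes were tested, and 74 to 3576 with a library left out, the lowest without pre B and the next, 99, without pre A. In such fits the lone library is taken to vary like the other group; the cause of the low counts was not tested. Flanking genes called lower, 14 in all, were 2 with no filter, 24 of 150 with the nearest 2 genes on each side (16%), and 1 to 16 with a library left out. Of the results above and the 6 named flanking genes, none changed sign, but the balance of calls over all genes turned with quantile normalization, from more higher to more lower genes. The alternatives planned for closest homologues and promoter motifs were not run. No paired analysis was possible because the column names carry no replicate number that can be tied to a labelled sample. Depth limits the lowest values, and with 2 libraries a group no single-gene permutation test could pass.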

Other observations

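Genes shorter than 300 bp were left out of the choice, and 3 of them met its other conditions. All 3 are small nucleolar RNA genes, whose products guide changes to other RNAs, and all are listed at 0 in both post-fertilization libraries. LOC113785586, of 83 bp, had 374 and 1142 FPKM before fertilization. Among the 28 genes of the same span, the lowest value above 0 was 241 FPKM for post A and 242 for post B, against 374 for pre A and 381 for pre B, so its value in pre A is the lowest that any gene of this span shows there. LOC113787910, of 90 bp, had 173 and 369 FPKM before fertilization, and the lowest value above 0 among the 12 genes of its span was 173 FPKM for pre A and 185 for pre B. LOC113785944, of 103 bp, had 49.5 and 58.3 FPKM before fertilization, and 49.5 FPKM was the lowest value above 0 among the 26 genes of its span in pre A, while that in pre B was 14.0 FPKM. In pre A each of the 3 genes thus stands at the lowest value above 0 that its span shows.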
